A study of Mus musculus with 6 samples.

Results

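The 43 genes described here encode proteins of DNA replication and mitosis, and they were taken by symbol from 46078 genes measured in mouse ovary. A group of 16 acts around S phase, when the genome is copied, and 27 act in mitosis, when the copies are separated. Every member was found once in each of the 6 libraries. The libraries fall into 2 groups of 3, made from whole ovaries of C57BL/6 mice 8 to 9 weeks old. One group received cyclophosphamide (CTX), an alkylating chemotherapy drug that cross-links DNA, and the other is labelled control. No dose, route, interval after treatment or vehicle is given in the sources used here, and the labels do not say whether each library is a different animal. The p-values below therefore rest on spread that may be technical.

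Dividing cells switch these genes on in waves. Before S phase, CDC6 and CDT1 load the ring-shaped MCM helicase onto replication origins, cyclin E and its kinase partner help start replication, and enzymes such as ribonucleotide reductase supply nucleotides. Before mitosis, cyclin B with CDK1, the Aurora and Polo-like kinases, and the kinetochore and spindle proteins are made, and the anaphase-promoting complex later destroys many of them. In the adult ovary the granulosa cells of growing follicles are the main dividing population, whereas luteal cells have largely left the cell cycle, and the growing oocyte, which does not divide, stores messages of several mitotic genes.

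The promoters of these classes carry different textbook elements, and 4 are shown because they stand for the patterns described below. E2F sites are bound by the E2F factors that drive S-phase genes, while the CHR element (cell cycle genes homology region), often next to CCAAT boxes, marks promoters of mitotic genes. Mcm6 encodes a subunit of the helicase, Pcna the sliding clamp of the polymerases, Ccnb2 cyclin B2, and Cdc20 the activator of the anaphase-promoting complex. Each sequence is the RefSeq window on GRCm38.p6 from 250 bases before to 50 after the annotated start, read 5′ to 3′ on the gene's strand, which is the minus strand for all 4. The windows are chr1:128359656-128359955 for Mcm6, chr2:132253131-132253430 for Pcna, chr9:70421505-70421804 for Ccnb2 and chr4:118437294-118437593 for Cdc20. Capitals mark the motifs searched on both strands, which are TTTGAA for CHR, CCAAT for the CCAAT box, and TTTGGCGC, TTTCCCGC, TTTCGCGC or TTTGCCGC for E2F.
Mcm6: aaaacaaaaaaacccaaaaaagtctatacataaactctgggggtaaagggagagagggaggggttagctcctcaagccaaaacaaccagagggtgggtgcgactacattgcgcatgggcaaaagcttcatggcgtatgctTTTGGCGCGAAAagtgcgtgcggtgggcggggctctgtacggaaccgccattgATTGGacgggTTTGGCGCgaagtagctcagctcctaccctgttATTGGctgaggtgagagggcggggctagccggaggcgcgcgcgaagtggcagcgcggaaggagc
Pcna: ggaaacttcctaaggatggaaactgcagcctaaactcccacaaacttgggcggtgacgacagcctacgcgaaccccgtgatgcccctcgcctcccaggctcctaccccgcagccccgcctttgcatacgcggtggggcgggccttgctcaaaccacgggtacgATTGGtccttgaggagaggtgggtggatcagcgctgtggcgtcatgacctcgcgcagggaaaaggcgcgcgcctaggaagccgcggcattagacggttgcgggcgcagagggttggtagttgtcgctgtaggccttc
Ccnb2: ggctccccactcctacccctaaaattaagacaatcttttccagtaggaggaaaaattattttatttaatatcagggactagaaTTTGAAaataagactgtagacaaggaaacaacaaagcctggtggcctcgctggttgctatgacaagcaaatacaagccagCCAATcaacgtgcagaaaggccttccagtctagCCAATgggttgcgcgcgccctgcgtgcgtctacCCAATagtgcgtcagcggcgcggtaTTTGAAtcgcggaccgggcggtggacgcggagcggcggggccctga
Cdc20: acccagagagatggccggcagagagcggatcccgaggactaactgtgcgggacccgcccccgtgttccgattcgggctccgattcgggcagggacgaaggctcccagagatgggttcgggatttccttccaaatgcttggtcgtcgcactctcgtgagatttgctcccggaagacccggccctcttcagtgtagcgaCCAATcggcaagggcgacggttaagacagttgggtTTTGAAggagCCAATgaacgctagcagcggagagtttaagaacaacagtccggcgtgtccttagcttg
The Mcm6 window holds 3 E2F matches, of which the first pair overlap on opposite strands in the run of 12 capitals. The Pcna window holds a CCAAT box and neither an E2F nor a CHR match, the Ccnb2 window 2 CHR matches and 3 CCAAT boxes, and the Cdc20 window 1 CHR match and 2 CCAAT boxes.

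Windows were matched for 35 of the 43 members, 12 of the S-phase class and 23 of the mitotic class. An E2F match lay in the windows of 6 of 12 S-phase genes (50%) and 1 of 23 mitotic genes (4.3%), against 2.6% of 27025 genes with windows of the same length. The 6 were Cdc6, Cdt1, Mcm3, Mcm5, Mcm6 and Mcm7, all of them genes of origin licensing, and the mitotic exception was Cdk1. A CHR match lay in the windows of 1 of 12 S-phase genes (8.3%) and 16 of 23 mitotic genes (69.6%), against 20.2% of all genes. The S-phase exception was Mcm2. In 15 of the 16 mitotic genes, the exception being Mki67, a CHR match was centred within 50 bases of the start (65.2% of the 23, against 5.8% of all genes), a distance chosen after the positions were seen. CCAAT boxes were in 8 of 12 S-phase and 18 of 23 mitotic genes (66.7 and 78.3%), against 41.1% of all genes. A match is a description of letters and not a shown binding site, and no set was tested.

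**Figure D1:**
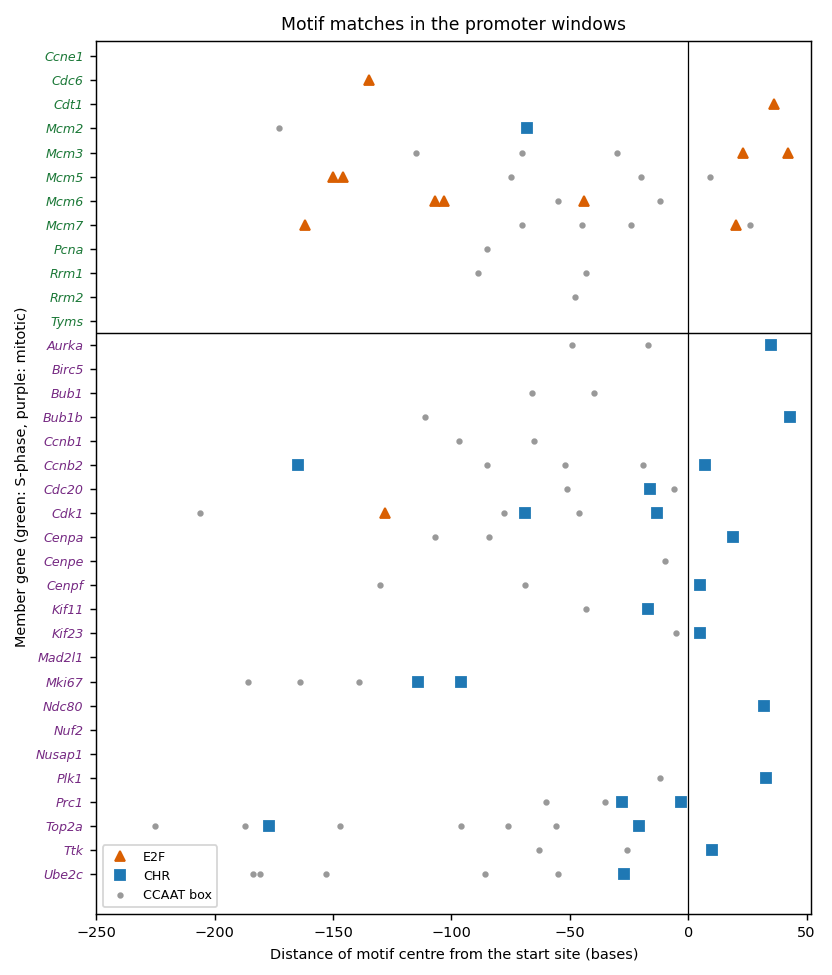
Positions of E2F (triangles), CHR (squares) and CCAAT box (dots) matches in bases from the annotated start site, 1 row per member with a RefSeq window. The E2F matches lie in 6 of 12 S-phase rows and 1 of 23 mitotic rows, and the CHR matches in 1 of 12 and 16 of 23 rows.

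Expression is given as RPKM, reads scaled by gene length and by library depth. The length used for each gene is not stated. All annotated exonic bases, 2400 for Pcna and 11012 for Rrm1, can exceed those of a single transcript. Levels of different genes therefore compare only roughly. The depth scale read from the values was 17100000 to 22100000 reads in the CTX libraries and 15800000 to 16800000 in the control libraries. At that depth the member with the least signal, Ccne1, rested on about 61 reads in its lowest library. All 43 members passed the filter on low values (3 or more libraries with an RPKM of 1 or above), as did 14535 genes in all. No granulosa, luteal or oocyte marker was at 0 in any library, a weak criterion that the lymphocyte markers listed below also met. In CTX 1 the granulosa markers Cyp19a1 and Inhba had 0.53 and 0.95 RPKM, under the level of 1 used in the filter. The 6 libraries did not fall together by group. CTX 2 and CTX 3 were the closest pair (Pearson correlation 0.990 across genes), followed by controls 1 and 2 (0.987), and CTX 1 and CTX 3 were the most distant (0.908). Over all genes tested, CTX 1 was the lowest library for 42.4% and the highest for 24.1%, on both sides more often than any other library.

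The members moved together from library to library, in an order that did not separate CTX from control. In 42 of the 43, CTX 2, CTX 3 and control 3 each had a higher RPKM than CTX 1, control 1 and control 2, an order found in 30.9% of the 14535 genes tested. Pcna was the exception. The order was noticed in these values and describes the libraries, and these sets are not groups of the study. It is an order of RPKM without further scaling. Each library's scaling factor came from a trimmed mean, over genes, of its log2 ratio to a reference library. This mean was back-transformed and divided by the geometric mean over all libraries. The factor was 0.9165, 1.037 and 1.038 in CTX 1, 2 and 3. In controls 1, 2 and 3 it was 0.993, 0.978 and 1.042, so the factors had the same order. CTX 2 was the highest library for 6 members, CTX 3 for 6 and control 3 for 31, where over all genes tested these were highest for 18.3%, 16.4% and 20.1%. CTX 1, highest for 24.1% of all genes, was highest for no member. It was the lowest for 25 members, control 1 for 17 and control 2 for 1, against 42.4%, 11.9% and 11.1% of all genes. The order of levels among the members was kept, with Spearman correlations of 0.955 to 0.991 between the 15 pairs of libraries across the 43 genes, which share their libraries and are not independent.

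**Figure D2:**
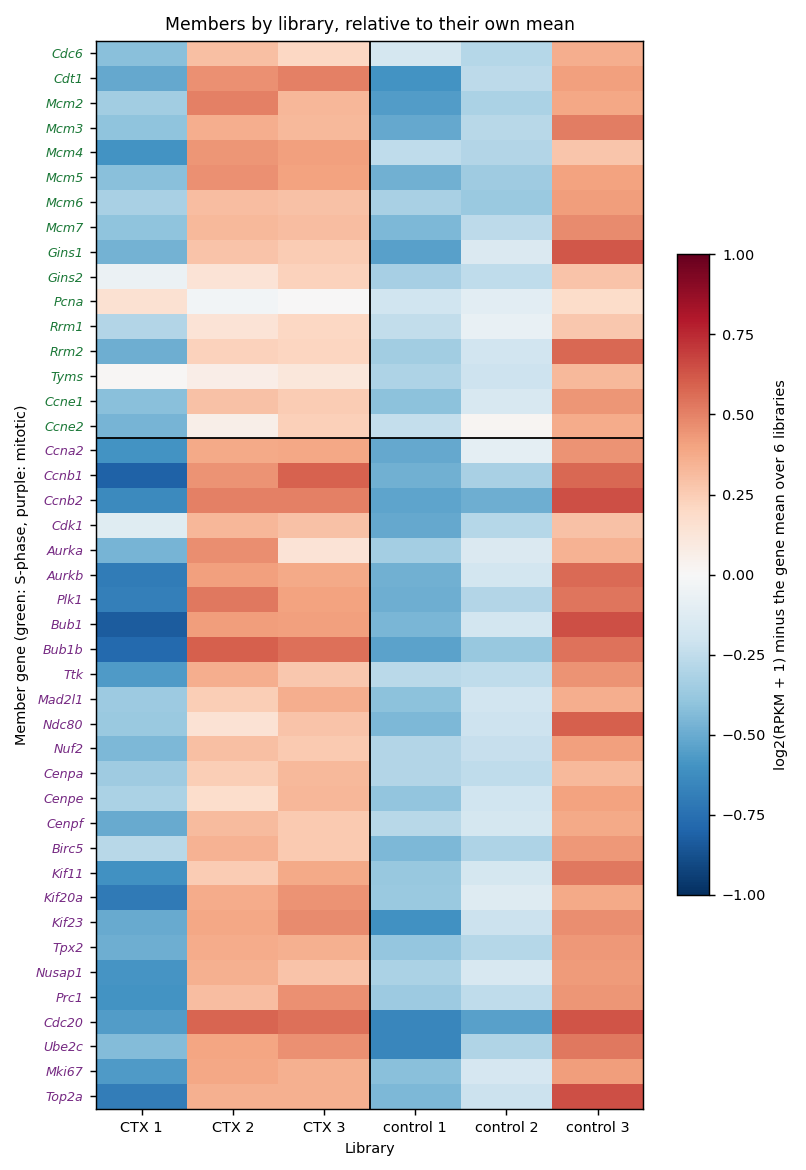
Heat map of log2(RPKM + 1) minus the gene's mean over the 6 libraries, with 1 row per member and 1 column per library, S-phase members above the line and mitotic members below it. The columns of CTX 2, CTX 3 and control 3 are red and those of CTX 1, control 1 and control 2 blue in most rows, with Pcna departing from this and Rrm1, Gins2 and Tyms showing it faintly.

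Among the genes that license and unwind origins, Mcm7 and Mcm6 had the highest levels. Mcm7 had 17.9, 30.3 and 30.1 RPKM in CTX 1, 2 and 3, against 17.4, 19.9 and 33.8 in controls 1, 2 and 3. Mcm6 had 17.7, 28.0 and 27.6 in the CTX libraries, against 17.7, 17.1 and 30.2 in the controls. For both genes the low CTX library sat with the 2 low controls and the high control with the 2 high CTX libraries, so the groups overlapped. Mcm2, another subunit of the same ring, had 13.8, 25.9 and 22.8 RPKM in CTX and 11.8, 14.2 and 23.7 in control. Its log2 fold change, CTX minus control on the log2(RPKM + 1) scale, was 0.33 ± 0.32 (SE) with a 95% interval of −0.44 to 1.10 (unadjusted p = 0.344, adjusted p = 1.0, limma). All 8 licensing genes, which include Cdc6 and Cdt1, had positive log2 fold changes, from 0.06 to 0.33 with a median of 0.19, and none passed. Without control 1, 5 of the 8 were positive and the median was 0.07, and the median was 0.07 without CTX 2, 0.08 without CTX 3 and 0.09 without control 2, against 0.48 without CTX 1 and 0.47 without control 3. Because the ring holds 1 copy of each of its subunits, their levels were also set against each other. Within a library the most abundant of Mcm2 to Mcm7 stood 1.74, 1.53 and 1.58 times above the least abundant in CTX 1, 2 and 3, and 1.79, 1.83 and 1.78 times in controls 1, 2 and 3. The CTX values of this measure all lay below the control values, a difference that was not tested. The least abundant was Mcm5 in all libraries but CTX 1, where it was Mcm4.

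Pcna was the most abundant member and the one that did not follow the others. It had 53.3, 46.9 and 48.0 RPKM in CTX and 41.6, 44.4 and 54.4 in control. On this unscaled RPKM, CTX 1, the lowest library for most members, was the second highest. Its highest and lowest libraries differed 1.31-fold, the smallest ratio of all members. Its log2 fold change was 0.08 ± 0.14, with an interval of −0.25 to 0.41 (limma adjusted p = 1.0). Of the annotated Pcna pseudogenes, which could take or lend reads, Pcna-ps2 had at most 1.10 RPKM and Pcna-ps1 was listed at 0 in every library. The level of Mki67, the proliferation marker Ki-67, relative to Pcna was 0.121, 0.285 and 0.273 in CTX 1, 2 and 3, against 0.174, 0.198 and 0.252 in controls 1, 2 and 3.

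The GINS subunits, which join the active helicase, were less abundant. Gins1 had 3.56, 6.72 and 6.55 RPKM in CTX and 3.36, 4.74 and 8.72 in control. Gins2 had 2.72, 3.26 and 3.54 in CTX and 2.07, 2.25 and 3.71 in control, with a log2 fold change of 0.20 ± 0.20 (interval −0.28 to 0.69, unadjusted p = 0.349, limma). CTX 1 lay above controls 1 and 2 for Gins2 and between them for Gins1. Gins2 shares 67.3% of its exonic bases with Gse1 on the opposite strand, so without strand information its value may include reads of that gene.

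Nucleotide supply was represented by the ribonucleotide reductase subunits and thymidylate synthase (Tyms). Rrm1, the large subunit, had 17.1, 23.5 and 24.6 RPKM in CTX and 17.8, 20.2 and 25.8 in control. Rrm2, the subunit whose level rises in S phase, had 8.08, 13.96 and 13.74 in CTX and 9.02, 10.1 and 18.0 in control. Rrm1 varied less across the 6 libraries, 1.51-fold from highest to lowest, than Rrm2 with 2.23-fold. The log2 fold changes were 0.03 ± 0.20 for Rrm1, −0.03 ± 0.31 for Rrm2 and 0.13 ± 0.19 for Tyms.

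Both cyclin E genes were at the low end of the members. Ccne1 had 1.45, 3.0 and 2.91 RPKM in CTX and 1.46, 1.92 and 3.45 in control. Ccne2 had 3.36, 5.25 and 6.09 in CTX and 4.10, 5.10 and 6.78 in control. Ccne2 had the lowest log2 fold change of all members, −0.11 ± 0.24 (interval −0.69 to 0.47, unadjusted p = 0.668, limma), with CTX 1 below every control and CTX 2 and 3 between control 2 and control 3. It shares 17.4% of its exonic bases with Ints8 on the opposite strand.

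Mitotic cyclins and their kinase divided the libraries as the MCM genes did. Ccnb2 had 13.2, 30.5 and 30.5 RPKM in CTX and 14.4, 14.8 and 33.6 in control. Ccna2, encoding cyclin A2, had 9.14, 19.0 and 19.2 in CTX and 9.78, 13.4 and 20.0 in control. In both genes CTX 1 was the lowest library and control 3 the highest. Cdk1, their catalytic partner, had 12.6, 17.7 and 17.2 RPKM in CTX and 9.41, 11.2 and 17.2 in control, a log2 fold change of 0.34 ± 0.24 with an interval of −0.24 to 0.92. This was the smallest unadjusted p among the members (unadjusted p = 0.209, adjusted p = 1.0, limma). Unlike the cyclins, Cdk1 was higher in CTX 1 than in controls 1 and 2, and Ccna2 relative to Cdk1 was 0.724 in CTX 1, against 1.04 to 1.20 in the other 5 libraries. Ccnb1, encoding cyclin B1, spanned a 3.0-fold range over the libraries. The pseudogenes Ccnb1-ps and Ccnb2-ps, whose reads could be shared with their parents, had at most 1.0 and 3.40 RPKM. Cdk1 lies on chromosome 10 (69335146 to 69352938), Ccnb2 on chromosome 9 (70407692 to 70421547) and Ccna2 on chromosome 3 (36564865 to 36572150), in mm10 coordinates and all on the minus strand.

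Mitotic kinases and checkpoint genes had the widest ranges of the role groups, with median ratios of highest to lowest library of 2.52 and 2.76. Plk1, the Polo-like kinase, had 7.51, 18.7 and 17.1 RPKM in CTX and 8.78, 10.2 and 18.9 in control. Aurkb, the kinase of the chromosomal passenger complex, had 4.94, 11.8 and 11.6 in CTX and 5.91, 7.49 and 13.2 in control. Bub1b, encoding the checkpoint protein BubR1, had 7.08, 19.9 and 19.3 in CTX and 8.56, 9.68 and 19.3 in control. In these 3 genes CTX 1 was the lowest library. Bub1, the checkpoint kinase, had the widest range of all members, 3.53-fold, with 2.37, 7.01 and 6.99 RPKM in CTX and 3.36, 4.28 and 8.37 in control. Its group means were nonetheless 5.46 ± 2.67 in CTX and 5.34 ± 2.67 in control (SD, n = 3 each), and its fitted log2 fold change was −5.6e-05 ± 0.43 with an interval of −1.05 to 1.05. Mad2l1, which encodes the checkpoint protein MAD2, had 9.88, 15.7 and 17.0 in CTX and 9.52, 11.3 and 17.0 in control.

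Kinetochore, spindle and chromosome genes repeated this. Birc5, encoding survivin of the passenger complex, had 7.41, 12.0 and 11.2 RPKM in CTX and 6.50, 7.24 and 12.8 in control. Cenpa, the centromeric histone, had 5.14, 8.32 and 8.82 in CTX and 5.42, 5.57 and 8.83 in control. Over the 6 kinetochore and centromere genes the log2 fold changes ran from 0.04 to 0.22, but 2 of the 6 were positive without control 1 or without CTX 3 and 3 without CTX 2 or without control 2. Without control 3 or without CTX 1 all 6 were positive. Tpx2, a spindle assembly factor, had 6.95, 13.4 and 13.3 in CTX and 7.51, 8.15 and 14.1 in control. Kif23, a kinesin of cytokinesis, had 6.67, 13.2 and 14.1 in CTX and 6.16, 8.38 and 14.04 in control. The 6 spindle genes all had positive log2 fold changes, from 0.02 to 0.23, but 1 of the 6 was positive without control 1, 2 without CTX 2 or without CTX 3 and 4 without control 2. Again all 6 were positive without control 3 or without CTX 1. CTX 1 lay among the 2 lowest libraries in the pair named here. Top2a, the topoisomerase that disentangles chromosomes, had 7.38, 16.4 and 16.4 in CTX and 8.91, 10.7 and 20.2 in control. Mki67 had 6.43, 13.4 and 13.1 in CTX and 7.25, 8.80 and 13.7 in control. In both, CTX 1 was lowest and control 3 highest.

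The pair of mitotic exit genes had the largest median log2 fold change of the role groups, 0.33. Cdc20 had 12.2, 28.1 and 27.5 RPKM in CTX and 11.3, 12.3 and 29.0 in control, with means of 22.6 ± 9.03 in CTX and 17.5 ± 9.92 in control (SD, n = 3 each). Its log2 fold change of 0.38 ± 0.45 was the highest of all members, with an interval of −0.71 to 1.47 (unadjusted p = 0.427, adjusted p = 1.0, limma). Ube2c, the ubiquitin-conjugating enzyme of the anaphase-promoting complex, had 9.16, 17.0 and 17.8 in CTX and 7.73, 10.1 and 18.8 in control. Both differences were smaller than the spread within either group. Ube2c shares 22.8% of its exonic bases with Tnnc2 on the opposite strand, Kif20a 29.3% with Cdc23, Ccna2 12.5% with Exosc9, Prc1 11.1% with Rccd1 and Mcm7 7.3% with Ap4m1.

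The study asks what cyclophosphamide does to the ovarian transcriptome, and no member passed the test between the groups. Limma called 0 of the 43 at an adjusted p under 0.05 and 0 at an unadjusted p under 0.05. Over all genes tested it called 0 (0%) at the adjusted threshold and 501 (3.45%) at an unadjusted p under 0.05. In 0 of the 43 members did all CTX libraries lie on one side of all controls, against 8.83% of all genes. The log2 fold changes of 40 members were positive, with a median of 0.13, where 48.8% of all genes were positive and the median was −0.01. That count rested on single libraries: 16 of 43 were positive without control 1, 20 without CTX 2, 22 without CTX 3 and 30 without control 2, and all 43 without control 3 or without CTX 1. The median was −0.04 without control 1, −0.01 without CTX 2, 0.00031 without CTX 3, 0.05 without control 2, 0.36 without control 3 and 0.40 without CTX 1.

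The intervals show what the design leaves undecided. For all 43 members the 95% interval of the log2 fold change included 0. For 12 it reached a doubling in CTX (log2 of 1), and for Bub1 it also reached a halving. These p-values thus do not show that the levels were alike in the groups.

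**Figure D3:**
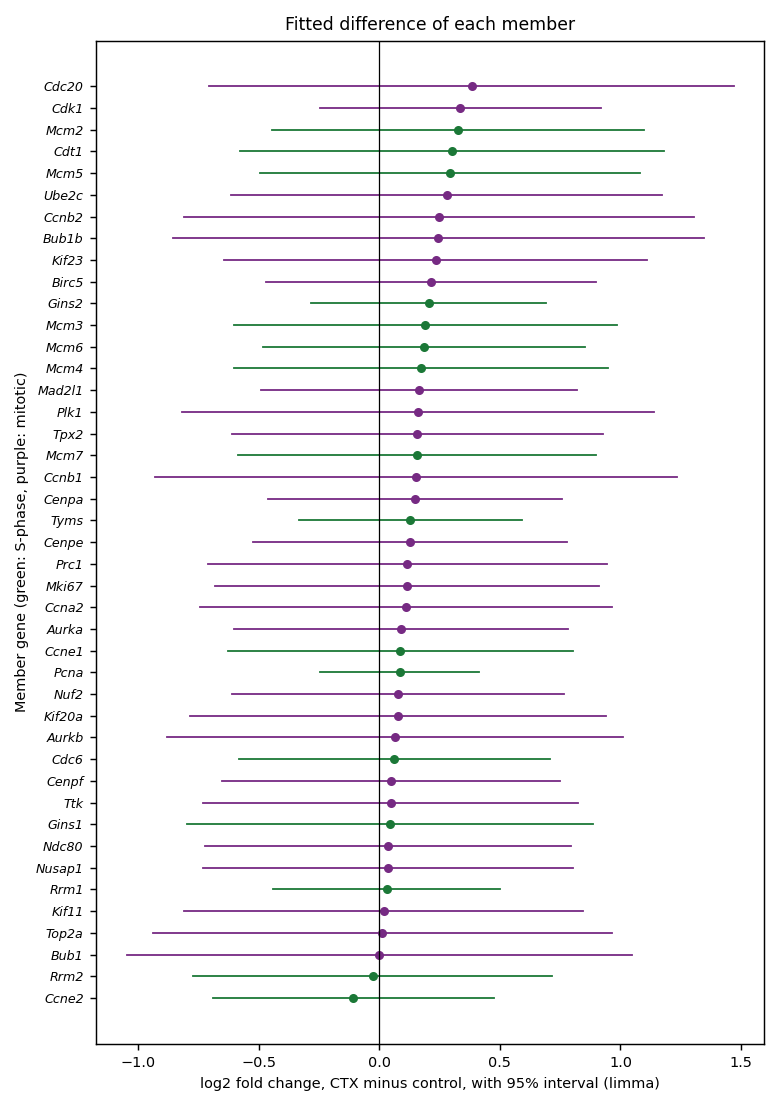
Fitted log2 fold change, CTX minus control, of each member with its 95% interval from limma, ordered by size, S-phase members in green and mitotic members in purple. Every interval crosses 0, and the points run from −0.11 for Ccne2 to 0.38 for Cdc20.

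Ratios of highest to lowest library within a group were larger than the ratio of the group means in nearly all members. The highest CTX library stood a median of 2.06 times above the lowest, and the highest control a median of 1.95 times above the lowest, over the 43 members. The ratio of the CTX mean to the control mean had a median of 1.11 and ran from 0.92 to 1.29. The within-CTX ratio was larger than the ratio between the groups in 42 members and the within-control ratio in all 43. A ratio of means averages over libraries and can fall below even, which a ratio of highest to lowest cannot. The measures themselves thus favoured these counts, and no share over all genes was computed.

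**Figure D4:**
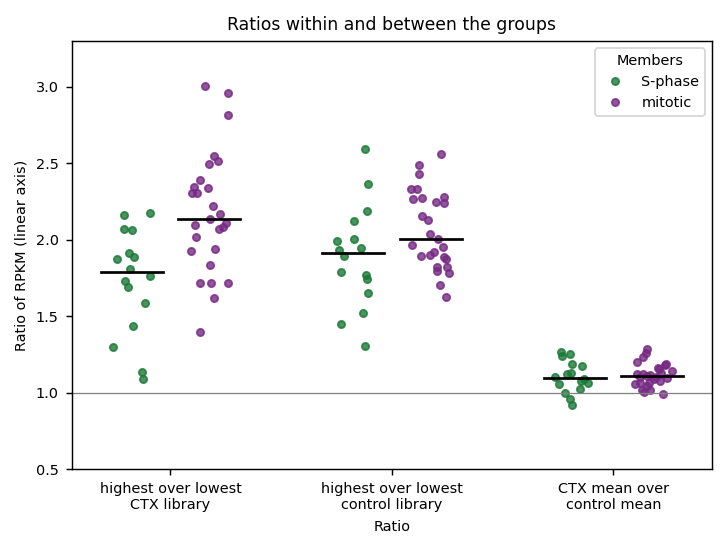
Ratio of the highest to the lowest library within CTX and within control, and ratio of the CTX mean to the control mean, 1 point per member on a linear axis, with bars at the class medians. The within-group medians of the classes lie between 1.79 and 2.14 and the between-group medians at 1.10 and 1.11.

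Setting the classes side by side, S-phase members had the higher median RPKM and mitotic members the wider range across libraries. The median RPKM of the S-phase class was 9.20, 16.9 and 16.4 in CTX 1, 2 and 3, and 9.43, 10.5 and 18.5 in controls 1, 2 and 3. That of the mitotic class was 5.45, 11.95 and 11.6 in CTX, and 6.16, 7.49 and 13.1 in control. From highest to lowest library, members differed by a median of 2.07 times in the S-phase class (1.31 to 2.60) and 2.34 times in the mitotic class (1.72 to 3.53), where the median of all genes was 1.64. CTX 1 was the lowest library for 19 of 27 mitotic members and for 6 of 16 S-phase members, while 9 S-phase and 8 mitotic members were lowest in control 1. Over all genes tested these shares were 42.4% for CTX 1 and 11.9% for control 1, so the S-phase count for CTX 1 lay near that of all genes.

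The difference of the class means, mitotic minus S-phase on the log2(RPKM + 1) scale, was −0.45, −0.16 and −0.15 in CTX 1, 2 and 3 and −0.31, −0.28 and −0.17 in controls 1, 2 and 3. It was thus closest to 0 in the libraries where both classes were high. By group it was −0.25 ± 0.17 in CTX and −0.25 ± 0.07 in control (SD, n = 3 each). The class means themselves were 3.54 ± 0.35 in CTX and 3.41 ± 0.41 in control for S-phase members, and 3.29 ± 0.53 and 3.15 ± 0.48 for mitotic members. Without Pcna, the S-phase mean was 2.9597, 3.6255 and 3.6193 in CTX 1, 2 and 3. In controls 1, 2 and 3 it was 2.9484, 3.1044 and 3.742. The mitotic mean was still lower in every library, at 2.6827, 3.5924 and 3.5985 in CTX and 2.7877, 2.9764 and 3.6989 in control. Part of the class difference in each library thus rested on Pcna, and in CTX 2, CTX 3 and control 3 most of it did. The median log2 fold change was 0.14 for the S-phase class (14 of 16 positive) and 0.12 for the mitotic class (26 of 27 positive). Without control 1, 8 of 16 and 8 of 27 were positive, against all 16 and all 27 without control 3 or without CTX 1. No test was made of these class values, since the members were chosen with results of these data known.

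**Figure D5:**
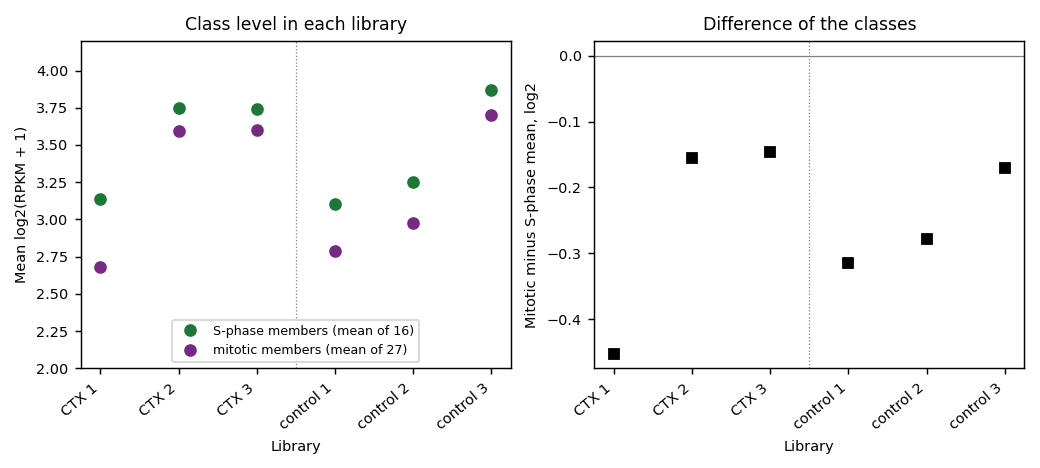
Left, mean log2(RPKM + 1) of the 16 S-phase (green) and 27 mitotic (purple) members in each library. Right, mitotic minus S-phase mean in each library, which runs from −0.45 in CTX 1 to −0.15 in CTX 3.

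Ratios between members were compared within each library. Of 13 such ratios, most between partner proteins and all chosen after the members' values were seen, the groups overlapped in 12. The exception was Bub1b relative to Bub1, at 2.99, 2.84 and 2.76 in CTX 1, 2 and 3 and 2.55, 2.26 and 2.30 in controls 1, 2 and 3. Its exact two-sided permutation p was 0.1, the smallest that 3 against 3 libraries allow, and 0.722 adjusted over the 13. The groups also did not overlap in the highest-to-lowest ratio among the MCM genes given above, which is outside the 13 and was not tested. Ccnb2 relative to Ccnb1 was 3.0, 2.55 and 2.30 in CTX and 2.5, 2.25 and 2.56 in control, and Aurka relative to Aurkb 1.10, 0.957 and 0.760 in CTX and 1.02, 0.941 and 0.779 in control.

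Other genes of the same processes, listed apart from the members, gave similar counts. Of 43 further replication genes limma called 0 and 0 had an unadjusted p under 0.05. Of their log2 fold changes 36 were positive, with a median of 0.11. Without control 1, 19 were positive, against 40 without control 3 or without CTX 1. In 37 of these 43 genes CTX 2, CTX 3 and control 3 were the 3 highest libraries, against 30.9% of all genes tested. Tipin, a fork protection factor and the most abundant of them, had 24.9, 25.0 and 30.7 RPKM in CTX and 18.7, 24.0 and 37.3 in control. The smallest unadjusted p-values were those of Gmnn (unadjusted p = 0.236, limma), the inhibitor of CDT1, with 9.34 ± 0.595 in CTX and 8.05 ± 1.56 in control, and of Orc1 (unadjusted p = 0.249, limma), an origin recognition subunit, with 2.04 ± 0.654 and 1.46 ± 0.496 in CTX and control (SD, n = 3 each).

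Of 44 further mitotic genes limma again called 0, with 0 at an unadjusted p under 0.05. Their log2 fold changes were positive in 37, with a median of 0.10. Without CTX 3, 15 were positive, against 43 without control 3 and 42 without CTX 1. CTX 2, CTX 3 and control 3 were the 3 highest libraries in 40 of these genes, against 30.9% of all genes tested. Bub3, a checkpoint protein and the most abundant, had 46.1, 45.6 and 46.2 RPKM in CTX and 34.4, 39.3 and 44.1 in control. It was the 1 gene of these 44 in which all CTX libraries lay above all controls, as they did in 483 of the 14535 genes tested. Its log2 fold change was 0.23 ± 0.12 (unadjusted p = 0.107, adjusted p = 1.0, limma). Cks1b, a CDK-binding protein, followed with 33.5 ± 6.72 in CTX and 27.5 ± 10.9 in control (unadjusted p = 0.302, limma).

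The libraries high in the members were also the 3 highest for 7 of 9 granulosa cell and 9 of 9 oocyte markers, and the 3 lowest for 8 of 8 luteal markers. Of the 14535 genes tested, 4497 had these libraries as the 3 highest and 2402 as the 3 lowest. The summed RPKM of 9 granulosa cell markers was 666, 2476 and 2390 in CTX 1, 2 and 3 and 1161, 1014 and 2911 in controls 1, 2 and 3. Most of this sum was Inha, an inhibin subunit, with 437, 1679 and 1602 RPKM in CTX and 722, 586 and 1982 in control. Foxl2, a granulosa cell transcription factor, had 78.9, 94.0 and 93.5 in CTX and 90.3, 91.1 and 90.9 in control. Inhbb, another inhibin subunit, had 20.3, 69.0 and 71.1 in CTX and 92.6, 80.3 and 255 in control. All CTX libraries thus lay below all controls for Inhbb, as they did in 800 of the 14535 genes tested. The summed RPKM of 9 oocyte markers was 102, 376.5 and 366 in CTX and 163, 139 and 328 in control. That of 8 luteal markers ran the other way, with 10202, 3224 and 3072 in CTX and 8002, 9132 and 4146 in control. The libraries with high S-phase and mitotic levels were thus those with high granulosa and oocyte and low luteal sums, and the part of cell composition in the members' values was not tested. In whole tissue, fewer dividing cells and less of these RNAs per cell cannot be told apart. Of other populations, 8 lymphocyte markers summed to 3.16 to 3.82 RPKM in CTX and 3.52 to 4.02 in control, and none passed the filter. The sum of 6 erythroid markers was 21.7, 75.4 and 66.5 in CTX and 18.4, 27.2 and 22.7 in control, so control 3, the highest library for most members, was not high in this sum. Alas2, 1 of these markers, was however highest in control 3, with 1.59 RPKM against 0.34 to 1.10 elsewhere. Slc4a1 was at 0 in at least 1 library. The sums of 7 endothelial and 6 macrophage markers were 98.3 to 127 and 238 to 337 in CTX, and 124 to 135 and 227 to 381 in control.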

How the data were processed

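RNA of snap-frozen whole ovaries was extracted with Trizol and made into Illumina TruSeq libraries, per the labels' protocols. The authors deposited 1 table per library with RPKM per gene. No header names the unit. It was read from the values, since low values of genes with 200 to 1000 exonic bases, multiplied by length, came within 0.2 reads of whole numbers in 97.0 to 97.4% of cases, which also gave the depth scale. The submitters' processing notes name Bowtie 0.12.2 and mm10. How reads were counted, on which annotation, with or without strand, and what was done with reads that match several places is not given in the sources used here.

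Values were transformed as log2(RPKM + 1), so changes of low genes are understated, and fitted by limma 3.58.1 (R 4.3.3) over 14535 genes with a mean-variance trend, without a block, and with Benjamini-Hochberg adjustment over all of them. The fit was also run on simulated data with a reduced spread per gene and independent noise. That run does not show what the fit could detect in these libraries. Exon lengths and positions came from GENCODE M21 and promoters from RefSeq, both on GRCm38, the assembly of mm10. Members and lists were chosen with earlier results of these data known, and 1 listed erythroid marker is not reported here. Values in every library were given for the 2 most abundant members per role and the 3 smallest p in each direction. Same-numbered libraries were not treated as pairs (correlations of deviations 0.40, −0.54 and 0.60).

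Alternatives were pseudocounts of 0.1 and 0.5, no filter, a filter at a mean RPKM of 5, trimmed-mean and quantile scaling, no trend, a replicate block, and each library left out. No pair of libraries shared more than 125 identical values among the genes kept, so all 6 were treated as separate.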

Additional observations from a re-analysis of the deposited data

How the results depend on the processing

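No member was called under any of the 14 alternatives. With all 6 libraries in the fit, 40 or 41 of 43 members stayed positive (32 of 35 with a mean RPKM of at least 5). Leaving out libraries moved the values most: the median log2 fold change ran from −0.04 to 0.40 over all members, from −0.0017 to 0.36 over the S-phase class and from −0.05 to 0.43 over the mitotic class. The mitotic median was −0.05 without control 1 and −0.03 without CTX 2 or CTX 3. Genes called ran from 0 to 5 over the whole table, the 5 without CTX 1, where the smallest adjusted p of a member was 0.288 (limma) and 2419 genes, 1 of them a member (Mcm4), had an unadjusted p under 0.05. Without control 3, 847 genes did, with 2 members (Cdk1 and Gins2) among them, and no member did in the other fits. Each such fit leaves 2 libraries in an arm. With the replicate number as a block, the median of all members was 0.13 and 0 genes were called. As 0 were called without it too, the block does not decide whether the numbers pair the libraries. Values of genes with few reads, such as Ccne1, are limited by depth.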
